A study of Mus musculus with 16 samples.

Results

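The genes described here are 10 components of the Notch pathway that were taken by name from a mouse mammary tumor RNA-seq table of 23609 genes: the receptors *Notch1*, *Notch2*, *Notch3* and *Notch4*, the ligands *Jag1*, *Jag2*, *Dll1* and *Dll4*, and the target genes *Hes1* and *Hey1*. All 10 were in the table, and all 10 passed the filter on low values, which kept 21034 genes. The tumors arose in the mammary glands of mice carrying MMTV-PyMT, a transgene in which the mouse mammary tumor virus promoter drives the polyoma middle T oncoprotein in the mammary epithelium. The wildtype group had unaltered *Resf1*, and the gene trap group, their littermates, was heterozygous (Resf1 +/-) for a lentiviral enhancer/gene trap that sits in the first exon of *Resf1* and produces an EGFP/Cre fusion. Both groups carried the PyMT transgene, no further treatment was given, and the gene trap allele came from a C57BL/6-derived strain that was crossed to FVB mice. The allele is carried by every cell of the mouse, not by the tumor cells alone, and the age of the animals at collection is not given in the sources used here. Values came from 5 wildtype and 5 gene trap tumors, each a whole piece of tissue.

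Notch receptors are single-pass membrane proteins that are activated by ligands of the Jagged and Delta-like families on a neighboring cell. Ligand binding exposes the receptor to ADAM proteases and then to gamma-secretase, and the released intracellular domain enters the nucleus, binds RBPJ and Mastermind proteins, and switches on targets such as the Hes and Hey repressors. In the mammary gland the pathway takes part in luminal cell fate, and in the vasculature *Dll4*, *Notch4* and *Jag1* act in endothelial cells and *Notch3* in mural cells, so that a bulk tumor mixes Notch transcripts of several cell types.

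RESF1 has been linked to G-quadruplexes, structures that can form where several runs of G lie close together, but mainly within transcribed sequence and not at promoters, and transcribed sequence was not searched here. The quadruplexes predicted at RESF1 sites were enriched for those with only 2 layers of G, and the search below needed runs of at least 3 G. RBPJ binds a short core motif in promoters of its targets. As a description of the genes, the 250 bases before each annotated start were searched for both patterns on both strands, using the promoter sequences of RefSeq on build GRCm38.p6. Sequences were matched for 8 of the 10 genes, as 9 promoters, since *Dll1* has a pair of starts, and none was matched for *Hes1* and *Hey1*. A stretch of 4 runs of at least 3 G separated by 1 to 7 bases, on either strand, was present in 2 of the 9 promoters, those of *Notch1* and *Jag2*, and in 16.7% of all 32851 promoters of the same length. The promoters of *Notch1* and *Jag2* are shown because they hold this pattern, which is in capitals, and those of *Notch2* and *Jag1* because these genes had a high correlation between tumors and do not hold it. All are written 5′ to 3′ on the strand of the gene.
Notch1 (chr2:26503823-26504072, minus strand): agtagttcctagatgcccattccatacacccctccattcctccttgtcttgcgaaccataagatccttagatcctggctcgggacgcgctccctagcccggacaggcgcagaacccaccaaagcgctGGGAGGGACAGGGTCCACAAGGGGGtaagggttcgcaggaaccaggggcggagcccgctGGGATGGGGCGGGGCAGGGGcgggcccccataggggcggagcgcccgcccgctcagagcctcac
Jag2 (chr12:112929496-112929745, minus strand): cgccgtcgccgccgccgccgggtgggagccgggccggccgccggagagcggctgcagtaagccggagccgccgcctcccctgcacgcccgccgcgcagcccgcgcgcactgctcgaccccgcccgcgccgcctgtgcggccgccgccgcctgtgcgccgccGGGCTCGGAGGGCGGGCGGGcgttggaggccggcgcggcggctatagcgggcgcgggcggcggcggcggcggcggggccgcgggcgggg
Notch2 (chr3:98013288-98013537, plus strand): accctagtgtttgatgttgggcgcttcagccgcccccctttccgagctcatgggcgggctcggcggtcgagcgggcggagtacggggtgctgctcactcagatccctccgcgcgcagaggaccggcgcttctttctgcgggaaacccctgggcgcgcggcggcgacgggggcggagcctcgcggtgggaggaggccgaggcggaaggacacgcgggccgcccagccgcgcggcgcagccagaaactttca
Jag1 (chr2:137116521-137116770, minus strand): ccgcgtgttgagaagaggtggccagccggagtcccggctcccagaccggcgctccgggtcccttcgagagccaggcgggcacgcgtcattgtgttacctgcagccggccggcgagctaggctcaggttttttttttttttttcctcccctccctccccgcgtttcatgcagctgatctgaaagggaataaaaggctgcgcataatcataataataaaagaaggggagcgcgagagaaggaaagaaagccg
The *Notch1* promoter has 2 such stretches that cover 45 bases, and the *Jag2* promoter has 1 of 20 bases. GC content was 66.0% for *Notch1*, 87.2% for *Jag2*, 72.0% for *Notch2* and 57.2% for *Jag1*, against a median of 52.4% over all promoters. The RBPJ core TGGGAA, or TTCCCA on the other strand, was in 0 of the 9 promoters and in 21.6% of all promoters. A match of letters is not a binding site, and a window without a match says nothing about regions outside it.

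*Resf1*, the gene that carries the trap, was measured first as a check of the labels. All values below are the deposited normalized values of the table, which the authors had put on a common scale across tumors, and n is 5 tumors in each group. *Resf1* was 4215, 4397, 3881, 4487 and 3517 in wildtype replicates 1 to 5 and 4029, 3066, 3686, 3392 and 3409 in gene trap replicates 1 to 5. The means were 4099 ± 399.7 and 3516 ± 361 (SD, n = 5 each), a log2 difference of -0.22 (SE 0.09). In the limma fit over all genes the unadjusted p was 0.0313 and the adjusted p 0.9997, and the exact permutation test gave p = 0.0635. The unadjusted p was above 0.05 in 8 of 18 alternatives, up to 0.0781 without wildtype replicate 4. Of the 5 gene trap tumors, 3 were below the lowest wildtype tumor, and the groups overlapped. The value does not separate transcripts of the trapped allele from those of the intact one.

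In each tumor the luminal markers, the defining genes of the labelled tissue, were abundant: the 11 genes of that list summed to between 127000 and 164100, with *Ehf*, an epithelial transcription factor, highest at a mean of 31600. The 10 basal (myoepithelial) markers summed to between 9104 and 12710 in wildtype and between 6705 and 9532 in gene trap tumors, and all 10 were lower on average in gene trap tumors, 2 of them at an unadjusted p under 0.05, where 0.956% of all genes were lower at that threshold. The difference in the basal score was -0.93, with exact permutation p = 0.0238 and p = 0.19 after Benjamini-Hochberg adjustment over 8 marker lists, and the other 7 lists had exact p from 0.333 to 0.849. The highest-mean genes of the other lists were *Acta2* (1875, basal), *Pecam1* (1186, endothelial), *Rgs5* (1929, mural), *Col3a1* (34310, fibroblast), *C1qa* (3056, macrophage), *Lck* (72.0, lymphocyte) and *Plin4* (1337, adipocyte), so that the leading gene of no list was at 0. On the first principal component, which held 31.1% of the variance, gene trap replicate 2 was at 91.8 and the remaining tumors were between -18.6 and -4.78. The depth in reads is unknown because the values had been normalized.

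The Notch genes did not differ detectably between gene trap and wildtype tumors. By limma, 0 of the 10 had an adjusted p under 0.05, and 0 had an unadjusted p under 0.05, where 479 of 21034 genes (2.28%) did over the whole table and 0 genes (0%) passed after adjustment. In all 10 genes the groups overlapped, while 0.528% of all genes had groups that did not. The log2 differences of the 10 genes had a median of -0.03, against 0.005 over all genes, and a median size of 0.11, against 0.10, with 4 higher and 6 lower in gene trap tumors. The 95% intervals, read as percent change, ran from -30.3% at the lowest, for *Hes1*, to 50.1% at the highest, for *Jag1*. Smaller differences than these remain possible, and in whole tumors fewer cells of a type and less RNA per cell cannot be told apart.

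**Figure D1:**
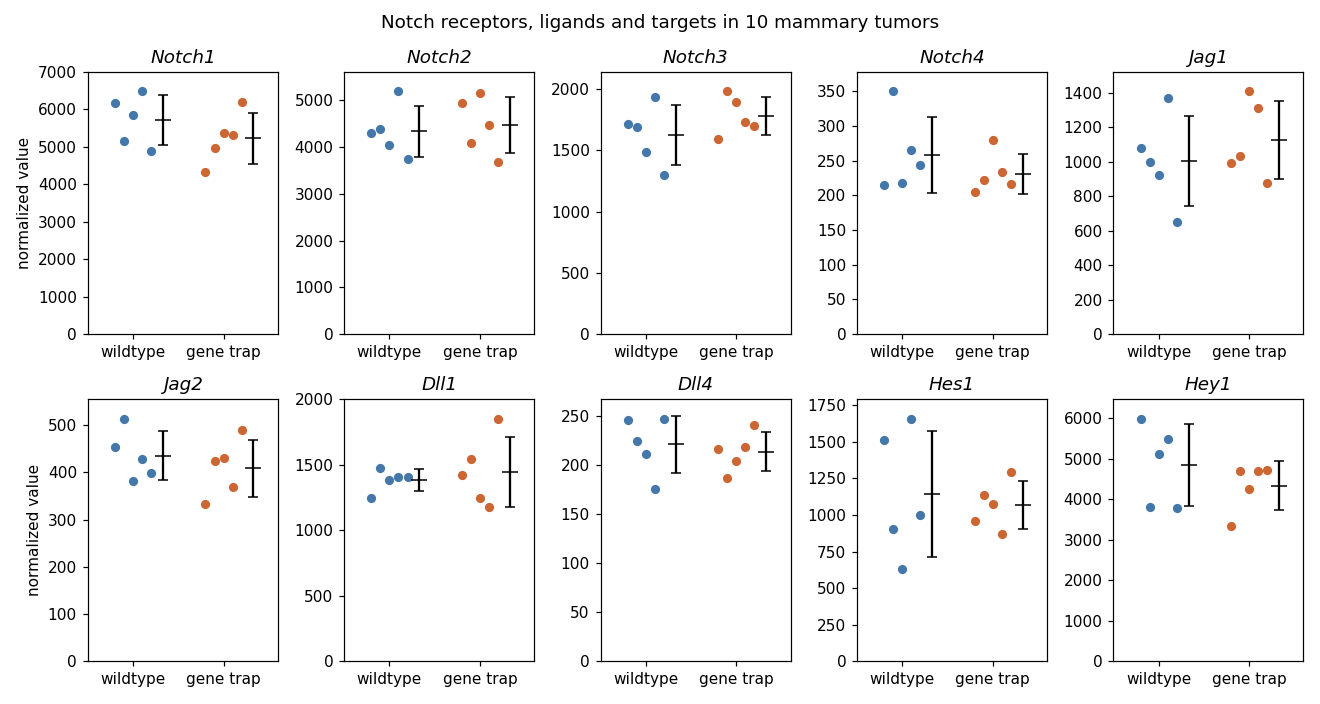
Normalized value (vertical axis, from 0) of each of the 10 Notch genes in the 5 wildtype tumors (blue) and the 5 gene trap tumors (orange), with replicates 1 to 5 from left to right and the mean and SD in black. The groups overlap in all 10 panels, and the spread is widest for *Hes1*, from 629 to 1659 in wildtype tumors.

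Among the receptors, *Notch1*, which acts in mammary luminal progenitors and in endothelium, was 6159, 5169, 5841, 6483 and 4882 in wildtype tumors 1 to 5. In gene trap tumors 1 to 5 it was 4325, 4966, 5361, 5308 and 6207. Gene trap replicate 1 lay below every wildtype tumor, while gene trap replicate 5 was among the 3 highest of all 10. The means were 5707 ± 669.7 and 5233 ± 683 (SD, n = 5 each), a log2 difference of -0.13 (SE 0.11) with a limma p of 0.257 and an exact permutation p of 0.31. It was -0.06 without gene trap replicate 1, -0.08 without wildtype replicate 4 and -0.19 without gene trap replicate 5.

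*Notch2*, a receptor that is broadly expressed in epithelium and stroma, was 4298, 4379, 4041, 5188 and 3742 in wildtype tumors 1 to 5. It was 4929, 4077, 5149.6, 4469 and 3684 in gene trap tumors 1 to 5. Wildtype replicate 4 and gene trap replicate 3 were the highest in their groups and nearly equal. The log2 difference was 0.04 (SE 0.11, limma p = 0.711, exact permutation p = 0.73), the smallest of the receptors.

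*Notch3*, best known from vascular smooth muscle and pericytes and also present in luminal progenitors, was 1713, 1691, 1485, 1936 and 1298 in wildtype tumors 1 to 5. It was 1589.5, 1980.5, 1893, 1729 and 1699 in gene trap tumors 1 to 5. The highest value was that of gene trap replicate 2, the tumor set apart on the first principal component, and the lowest that of wildtype replicate 5. The log2 difference was 0.14 (SE 0.11, limma p = 0.218, exact permutation p = 0.27), and it was 0.10 without gene trap replicate 2 and 0.06 without wildtype replicate 5.

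*Notch4*, a receptor of endothelial cells, was the lowest receptor, with 215, 350.1, 218, 266 and 243 in wildtype tumors 1 to 5. It was 205, 222, 279, 234 and 217 in gene trap tumors 1 to 5. Wildtype replicate 2 was well above the other 9 tumors. The log2 difference was -0.14 (SE 0.15, limma p = 0.358, exact permutation p = 0.397), and it was -0.03 without that tumor.

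Among the ligands, *Jag1*, the Jagged ligand with the wider expression, had the largest log2 difference of the 10 genes and a wide spread. It was 1080.3, 998, 923, 1368 and 649 in wildtype tumors 1 to 5. It was 991, 1032, 1408, 1312 and 879 in gene trap tumors 1 to 5. The high tumors were wildtype replicate 4 and gene trap replicates 3 and 4, and the low one was wildtype replicate 5. The means were 1004 ± 260.1 and 1125 ± 225 (SD, n = 5 each), a log2 difference of 0.18 (SE 0.19, limma p = 0.346, exact permutation p = 0.484), and without wildtype replicate 5 it was 0.04. It was 0.30 without wildtype replicate 4, and 0.10 and 0.12 without gene trap replicates 3 and 4.

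*Jag2*, the second Jagged ligand, was 455, 514, 382, 428 and 399 in wildtype tumors 1 to 5. It was 333, 423, 430.4, 369 and 489 in gene trap tumors 1 to 5. Gene trap replicates 1 and 4 lay below all wildtype tumors. The log2 difference was -0.10 (SE 0.12, limma p = 0.45, exact permutation p = 0.444). It was between -0.16 without gene trap replicate 5 and -0.02 without gene trap replicate 1, and was -0.03 without wildtype replicate 2 and -0.06 without gene trap replicate 4.

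*Dll1*, a Delta-like ligand found in mammary stem cells, was even among wildtype tumors, at 1244, 1477, 1383, 1408 and 1406. Gene trap tumors 1 to 5 spread more widely, at 1419, 1543, 1246, 1179.8 and 1853. The SD was 85.5 in wildtype and 268 in gene trap tumors, a difference in spread that was not tested. The highest value belonged to gene trap replicate 5 and the lowest to gene trap replicate 4, and the log2 difference was 0.05 (SE 0.11, limma p = 0.673, exact permutation p = 0.722).

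*Dll4*, the ligand of sprouting endothelial tip cells, was 245, 225, 211, 176 and 247 in wildtype tumors 1 to 5. It was 216, 187, 204, 218 and 241 in gene trap tumors 1 to 5. All gene trap tumors fell inside the wildtype range. The log2 difference was -0.04 (SE 0.13, limma p = 0.726, exact permutation p = 0.683).

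Of the targets, *Hes1*, a repressor that Notch induces directly in many cell types, varied most, with a coefficient of variation of 28.0% over the 10 tumors against 11.02% to 22.4% for the other 9 genes. It was 1512, 907, 629, 1659 and 1002 in wildtype tumors 1 to 5. It was 962, 1139.6, 1077, 873 and 1296 in gene trap tumors 1 to 5. All gene trap tumors lay within the wildtype range, which spanned 2.64 fold. The means were 1142 ± 431 and 1069 ± 163 (SD, n = 5 each), a log2 difference of -0.02 (SE 0.23, limma p = 0.929, exact permutation p = 0.944) whose direction changed when any of several tumors was left out.

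*Hey1*, a related repressor downstream of Notch, was 5992, 3808, 5129, 5499 and 3781 in wildtype tumors 1 to 5. It was 3338, 4704, 4253, 4688 and 4716 in gene trap tumors 1 to 5. The wildtype tumors fell into 3 high and 2 low values, and gene trap replicate 1 was the lowest of all 10. The means were 4842 ± 1004 and 4339.9 ± 593 (SD, n = 5 each), a log2 difference of -0.14 (SE 0.15, limma p = 0.343, exact permutation p = 0.397). It was -0.05 without gene trap replicate 1, and -0.06 and -0.09 without wildtype replicates 1 and 4. Without wildtype replicates 2 or 5 it was -0.22 and -0.23.

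No single tumor carried all the high or low values. Wildtype replicate 4 was highest for *Notch1*, *Notch2* and *Hes1*, gene trap replicate 1 was lowest for *Notch1*, *Notch4*, *Jag2* and *Hey1*, and gene trap replicate 2 was extreme only for *Notch3*. Each gene's log2 value in a tumor was also set against its median over the other tumors. The median of these deviations over the 10 genes was 0.24 in wildtype replicate 4 and -0.13 in gene trap replicate 1, the largest in each direction.

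The other pathway genes were likewise close to the table as a whole. Of 44 listed genes 42 were in the table and 39 passed the filter. Among the 39, 20 were higher and 19 lower in gene trap tumors, with a median log2 difference of 0.01 and a median size of 0.06, against 0.10 over all genes. By limma, 0 had an adjusted p under 0.05, 0 were higher at an unadjusted p under 0.05, where 1.32% of all genes were, and 1 was lower, where 0.956% of all genes were. That gene was *Ncstn*, which encodes nicastrin, the substrate-receptor subunit of gamma-secretase. It was 2454, 2318, 2572, 2619 and 2237 in wildtype tumors 1 to 5 and 2177, 2048, 2297, 2171 and 2265 in gene trap tumors 1 to 5. Of the 5 gene trap tumors 3 lay below the lowest wildtype tumor, and the log2 difference was -0.15 (SE 0.07, limma p = 0.041, adjusted p = 0.9997, exact permutation p = 0.0317), which missed the threshold after adjustment.

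By role, the 8 receptor cleavage genes had 2 higher and 6 lower, and the small gamma-secretase subunit *Psenen*, the highest of them per kb, was 1034 ± 88.5 in wildtype and 1086 ± 228 in gene trap tumors (SD, n = 5 each). The 5 glycosylation genes, which modify the receptors and tune ligand choice, had 3 higher and 2 lower, and the O-glucosyltransferase *Poglut1* was 1049 ± 112 and 943 ± 99.7. The 4 genes of ligand endocytosis had 2 higher and 2 lower, and *Mib1*, an E3 ligase that activates ligands, was 10796 ± 647 and 10769 ± 624. These means were measured in the same 5 and 5 tumors, and none of the 3 had an unadjusted p under 0.05.

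In the nucleus, 5 of the 9 genes of the RBPJ complex and its corepressors were higher and 4 lower, and the coactivator *Snw1* was 3361 ± 203 in wildtype and 3238 ± 241 in gene trap tumors (SD, n = 5 each). Of the 9 turnover and inhibitor genes 4 were higher and 5 lower, and *Itch*, an E3 ligase that degrades Notch, was 4098 ± 153 and 3975 ± 353. Of the 3 other targets tested all were higher, the largest being *Nrarp*, a feedback inhibitor that Notch induces, at 126 ± 31.8 and 143 ± 34.0 (SD, n = 5 each). Its log2 difference was 0.19 (SE 0.22, exact permutation p = 0.421). The only other ligand to pass the filter was *Egfl7*, a secreted endothelial factor, at 609 ± 159 and 640.0 ± 79.4. *Dlk1*, *Dlk2* and *Hes7* were under the filter, with means of 4.31, 6.71 and 4.71 over the 10 tumors. *Dll3* and *Hes5* were not found among the gene symbols of the table and so were not analysed here.

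**Figure D2:**
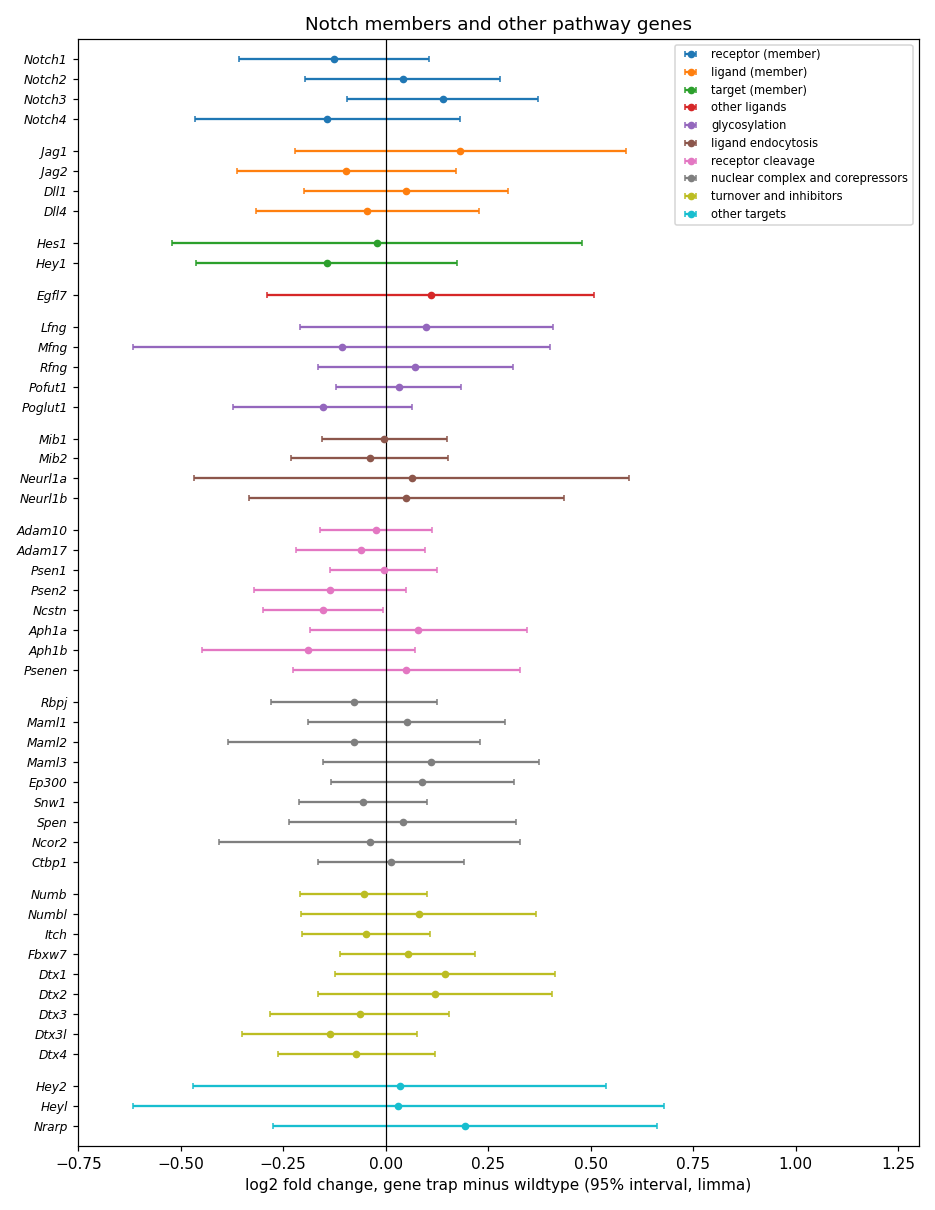
Log2 fold change of gene trap against wildtype tumors (horizontal axis) with its 95% interval by limma, for the 10 Notch genes (top 3 groups) and 39 other pathway genes by role. Every interval crosses 0 but that of *Ncstn*, whose adjusted p was 0.9997.

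Levels can be compared between genes only per length, so each value was divided by the length in kb of the principal transcript in GENCODE mouse release 21. On this scale the order over the 10 tumors was *Hey1* (1895 ± 339 per kb, SD, n = 10), *Hes1* (753 ± 211), *Notch1* (577 ± 72.2), *Notch2* (419 ± 51.7), *Dll1* (395 ± 53.2), *Notch3* (212 ± 26.1), *Jag1* (189.6 ± 42.4), *Jag2* (82.7 ± 10.7), *Dll4* (57.9 ± 6.38) and *Notch4* (37.2 ± 6.67). Both targets thus stood above all receptors and ligands, and the genes best known from endothelium, *Dll4* and *Notch4*, were the lowest. *Hey1* was above 95.1% of the tested genes with a known length and *Notch4* above 26.5%. Each neighbor in this order was compared within tumors by an exact permutation test over sign changes, whose smallest p is 0.00195, with adjustment over 9 pairs. *Notch2* exceeded *Dll1* in 6 of 10 tumors (exact p = 0.406, adjusted p = 0.406), so these neighbors did not differ beyond their spread. The other 8 pairs differed with adjusted p from 0.00352 to 0.0308, the weakest being *Notch3* above *Jag1* in 7 of 10 tumors and *Hes1* above *Notch1* in 9 of 10. The pairs were set by the order of these same values, so the p-values are no separate support for that order. They measure the spread between tumors and do not cover the choice of length. With the length of all exons of a gene in place of the principal transcript, *Notch1* and *Notch2* changed places, at 384 and 408 per kb, and the other 8 kept their rank. Reads of overlapping genes are a further limit: *Notch1*, *Notch3*, *Dll1* and *Dll4* share exon sequence with genes on the opposite strand, which covered 20.6% of the exon length for *Dll1*, and *Notch2* with a gene on the same strand, and whether counting used strand is not given in the sources used here.

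**Figure D3:**
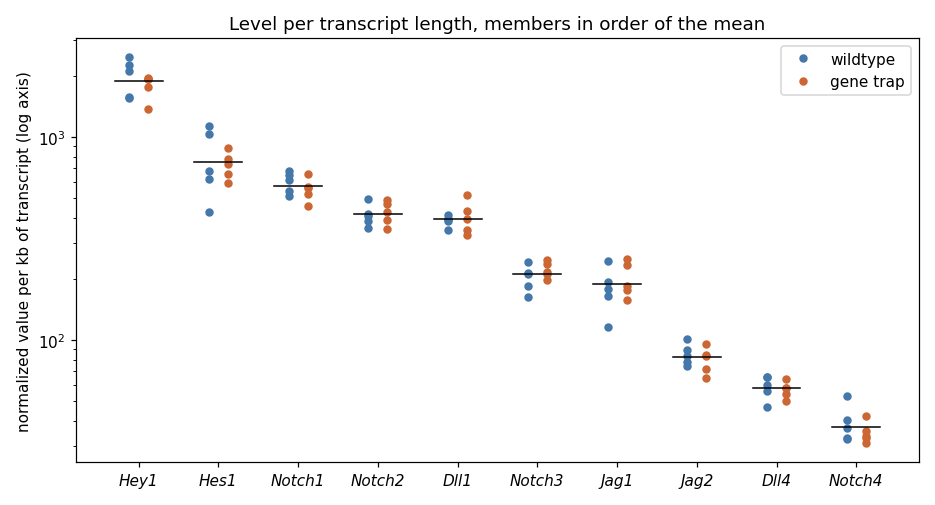
Normalized value per kb of the principal transcript (log axis) of the 10 Notch genes in the 5 wildtype (blue) and 5 gene trap (orange) tumors, in order of the mean over all tumors (black line). *Hey1*, at a mean of 1895 per kb, is the highest and *Notch4*, at 37.2 per kb, the lowest, and the groups lie on top of each other.

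Correlations between the genes from tumor to tumor were positive and high for 3 pairs, although no pair passed adjustment. These pairs were examined after the values had been seen. Of the 45 pairs 0 had an adjusted p under 0.05. The receptor *Notch1* and the target *Hey1* had the largest correlation of log2 values over the 10 tumors, with Pearson r = 0.86 (permutation p = 0.00168, adjusted p = 0.0714) and Spearman rho = 0.85 (permutation p = 0.00287, adjusted p = 0.128). It was 0.75 without the 2 tumors farthest from the median of *Hey1*, 0.85 as deviations from the group means, and between 0.78 and 0.91 with each tumor left out. Gene trap replicate 1 was the lowest tumor and wildtype replicate 5 the next lowest for both genes. *Hes1*, the other target, had r = 0.45 with *Notch1* and r = 0.42 with *Hey1*.

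*Jag1* had its largest correlation with *Notch3* (r = 0.81, permutation p = 0.00476, adjusted p = 0.0714; rho = 0.79, permutation p = 0.00851, adjusted p = 0.128). The next was with *Notch2* (r = 0.80, permutation p = 0.00425, adjusted p = 0.0714; rho = 0.82, permutation p = 0.00583, adjusted p = 0.128). Without the 2 tumors farthest from the median the values were 0.54 and 0.70, so the first rests in part on those tumors. With *Notch3* the wildtype tumors followed the relation more closely than the gene trap tumors: gene trap replicate 2 was the highest of its group for *Notch3* and in the middle for *Jag1*, and whether the groups differ in this was not tested. Wildtype replicate 4 and gene trap replicate 3 were among the 3 highest tumors, and wildtype replicate 5 among the 2 lowest, for all 3 genes. *Dll4* went the opposite way, with r = -0.67 with *Notch3*, -0.62 with *Jag1* and -0.59 with *Notch2*, the first at permutation p = 0.0302 and adjusted p = 0.34. Without gene trap replicate 2, 2 pairs had an adjusted p under 0.05, and r was 0.91 for *Notch1* with *Hey1* and 0.91 for *Notch3* with *Jag1*.

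**Figure D4:**
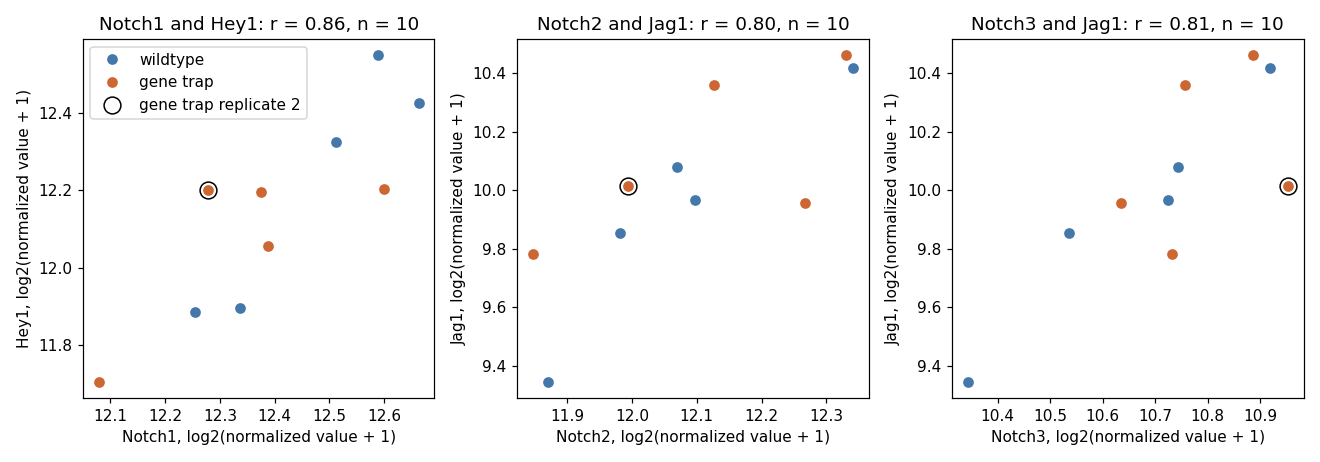
Log2(normalized value + 1) of *Hey1* against *Notch1*, of *Jag1* against *Notch2* and of *Jag1* against *Notch3* in the 10 tumors, wildtype in blue and gene trap in orange, with gene trap replicate 2 circled. Pearson r is 0.86, 0.80 and 0.81, none of which passed adjustment over 45 pairs.

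*Resf1* itself was compared with each of the 10 genes over the tumors, also after the values had been seen. Of the 10 relations 0 had an adjusted p under 0.05, and Pearson r ran from -0.22 for *Dll1* to 0.51 for *Notch2* (permutation p = 0.134, adjusted p = 0.914; rho = 0.48, permutation p = 0.166, adjusted p = 0.852). For *Notch2* r was 0.33 without the 2 tumors farthest from the median of *Resf1* and 0.78 as deviations from the group means. It was 0.50 without gene trap replicate 2.

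Because endothelial, mural, luminal and basal cells all use Notch, each gene was set against the score of these 4 marker lists, the mean z score of the list in a tumor. Of the 40 relations 0 had an adjusted p under 0.05. The largest was that of *Dll4* with the mural score (r = 0.78, permutation p = 0.00812, adjusted p = 0.325, and rho = 0.59, permutation p = 0.0815, adjusted p = 0.645). This r fell to 0.32 without the 2 tumors farthest from the median and so rests in part on those. It was between 0.62 and 0.88 with each tumor left out. Within groups it was 0.94 in wildtype and 0.47 in gene trap tumors (n = 5 each). *Dll4* had r = 0.61 with the endothelial score, which fell to 0.20 without the 2 tumors farthest from the median of that score. Within groups this r was 0.90 in wildtype and 0.14 in gene trap tumors (n = 5 each). All 14 endothelial and all 7 mural markers correlated with *Dll4* positively. These markers make up the scores, so their signs are no separate support. *Emcn*, an endothelial sialomucin, was closest among the endothelial genes (r = 0.73). *Pdgfrb*, the pericyte growth factor receptor, was closest among the mural genes (r = 0.72). *Notch3* had r = -0.66 with the endothelial and -0.65 with the mural score, and *Hey1* had -0.64 and -0.59. Without the 2 farthest tumors these were -0.29 and -0.34 for *Notch3* and -0.48 and -0.55 for *Hey1*. All 14 endothelial markers correlated negatively with *Notch3* and with *Hey1*, and 6 of 7 mural markers did so with *Notch3* and 5 of 7 with *Hey1*. The same held for all 14 endothelial markers with *Notch1* and with *Jag1*, whose r with the endothelial score was -0.54 and -0.44. The endothelial and mural scores were both highest in wildtype replicate 5 and lowest in wildtype replicate 4, the tumors in which *Dll4* was highest and lowest.

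*Notch4*, in contrast, had r = 0.12 with the endothelial and 0.13 with the mural score, and r = 0.61 with the basal score (permutation p = 0.0626, adjusted p = 0.389; rho = 0.44, permutation p = 0.204, adjusted p = 0.666), with r = 0.51 without the 2 farthest tumors. With each tumor left out the r with the basal score was between 0.35 and 0.74. Within groups it was 0.86 in wildtype and 0.25 in gene trap tumors (n = 5 each). *Notch4* had r = 0.38 with the luminal score, and 9 of 11 luminal and 9 of 10 basal markers correlated with it positively. Its closest single marker in the 4 lists was the luminal gene *Cdh1* (r = 0.82), above the closest basal gene, *Oxtr* (r = 0.67). Wildtype replicate 2 was the highest tumor for both *Notch4* and the basal score. The basal score was 0.93 lower in gene trap tumors, without passing adjustment, and the part of basal cells in the values of *Notch4* was not tested. The luminal score had its largest relation with *Dll4* (r = -0.58), and the differences between these relations were not tested.

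**Figure D5:**
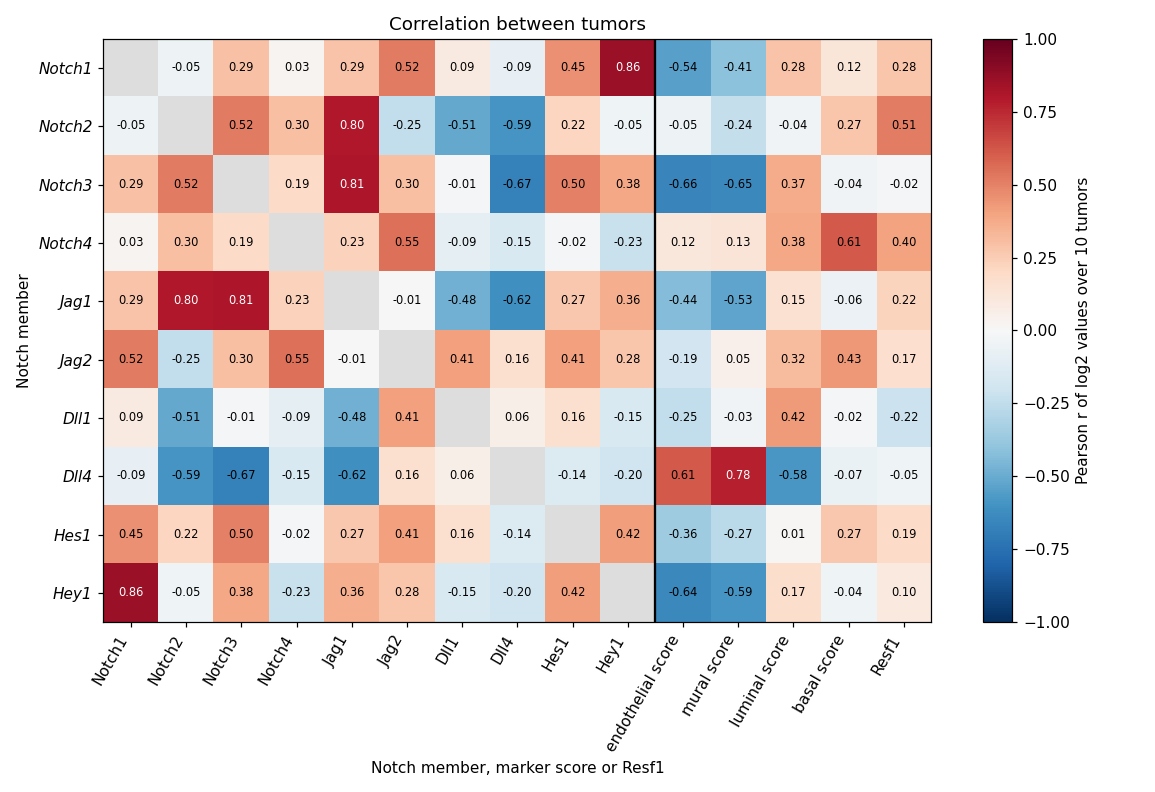
Pearson r of log2 values over the 10 tumors between the 10 Notch genes (rows) and, in columns, the same genes, 4 marker scores and *Resf1*, red for positive and blue for negative. The strongest cells are *Notch1* with *Hey1* (0.86), *Jag1* with *Notch3* (0.81) and *Notch2* (0.80), and *Dll4* with the mural score (0.78), and none passed adjustment.

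For each gene the 3 genes with the most similar profile over the 10 tumors were taken from 13997 genes with a mean of at least 100. Each is the top of 13997 comparisons, so that a high r is to be expected and no p is given. *Notch1* was closest to *Dtx3* (r = 0.95), a member of the Deltex family of Notch-associated ubiquitin ligases, and then to *Nck2*, an SH2/SH3 adaptor (0.93), and *Hyal1*, a hyaluronidase (0.92). *Dtx3* was 1642, 1397, 1539, 1777 and 1339 in wildtype tumors 1 to 5 and 1270.0, 1439.9, 1549.6, 1396 and 1704 in gene trap tumors 1 to 5, high and low in much the same tumors as *Notch1*. *Notch2* was closest to the transcription factor *Creb3l2* (0.95), to *Maml3* (0.95), which encodes a Mastermind coactivator of Notch, and to *Tln1* (0.94), which encodes talin. *Maml3* was 735, 782, 736, 965 and 636 in wildtype tumors 1 to 5 and 873, 785, 943, 873 and 673 in gene trap tumors 1 to 5.

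*Notch3* was closest to *Itpr3*, an inositol trisphosphate receptor (0.96), *Arid1b*, a chromatin remodeler subunit (0.95), and *D17Wsu92e* (0.95). *Notch4* was closest to the globin genes *Hba-a1* (0.93) and *Hbb-bt* (0.93), which mark red blood cells and are each part of a family of near-identical copies, and then to *Coro7* (0.91). *Jag1* was closest to *Trpm3*, a cation channel (0.94), *Pphln1* (0.93) and *Hsf1*, the heat shock transcription factor (0.92), and *Jag2* to *Hmgn3* (0.91), *Slc6a15* (0.90) and *Gnb1l* (0.89). *Dll1* was closest to *Stc2*, a stanniocalcin (0.95), *Crebl2* (0.93) and *Gm37352* (0.92), and *Dll4* to *Relch* (0.90), the pseudogene *Gm49760* (0.90) and *Thoc1*, a subunit of an mRNA export complex (0.90). *Hes1* was closest to *Spry4*, a feedback inhibitor of receptor tyrosine kinase signaling (0.91), *Slc26a1* (0.91) and *Idua* (0.91). *Hey1* was closest to *Etv4*, an ETS transcription factor downstream of the same kinase pathways (0.92), then to *Wbp1* (0.87), and after it to *Notch1* itself (0.86), the only case in which a Notch gene had another of the 10 among its closest 3.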

How the data were processed

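RNA was extracted with TRIzol and stranded total RNA libraries were made (TruSeq). STAR 2.7.8a, Partek, DESeq2 and genome build mm39 are named in the submitters' processing notes, and the counter and annotation are not given in the sources used here. The authors deposited a signal per gene: estimated counts that had been normalized by median ratio, with 0 zeros, so reads and depth could not be recovered. Of 16 columns 10 carry a tumor's label, and 6 named by animal number matched none of the 16 labelled tumors and were not used. The labels number the tumors without stating that each came from a separate animal, so p-values measure the spread between these samples.

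Symbols were found for 22899 of 23609 IDs (97.0%), and transcript lengths came from GENCODE mouse release 21. Log2(value + 1) was fitted, where the mean over tumors reached 10, by limma 3.58.1 (R 4.3.3) with a mean-variance trend, 2 groups and Benjamini-Hochberg adjustment over 21034 genes. Fold changes are on this log2 scale, which understates those of low genes. Single genes were compared by exact two-sided permutation (252 arrangements, smallest p 0.00794), and correlations by two-sided permutation with 100000 resamples, in Python 3.11.15. The calculations were tested on simulated data. The members and lists were chosen with earlier results of these data known. Named genes are *Resf1*, the 10 Notch genes, genes with an adjusted p under 0.05 (none), pathway genes with an unadjusted p under 0.05, the highest gene per kb of each pathway list, the 3 genes most alike to each member, and the highest-mean and most closely correlated marker genes. RBPJ core and G-run searches, relations between members and relations with *Resf1* were added after values were seen. Alternatives were each tumor left out, the replicate number as a block, other pseudocounts and filters, quantile normalization, weights per tumor and no variance trend.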

Additional observations from a re-analysis of the deposited data

Results flagged for a closer look

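The highest and lowest tumor of each group was tested for a gap to the others in the 10 Notch genes. Of 20 groups 0 passed Dixon's 95% critical value, where chance gives about 1.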

How the results depend on the processing

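Under 18 alternatives 0 genes had an adjusted p under 0.05, and 0 of the 10 Notch genes had an unadjusted p under 0.05. The number of genes with an unadjusted p under 0.05 was 479, and ran from 308 (without wildtype replicate 4) to 692 with each tumor left out. The 1 other pathway gene at that threshold became 0 without the variance trend and with the replicate number as a block, and 0 to 2 with each tumor left out (2 without wildtype replicate 2). With the block the table had 426 genes at an unadjusted p under 0.05 and 0 after adjustment. Deviations of same-numbered tumors correlated at -0.16 to 0.15, which cannot settle whether the numbers pair the tumors. The labels do not state a pairing. *Hes1* changed direction most often, to 0.0058 with weights per tumor and up to 0.14 with a tumor left out (0.01 and 0.05 without gene trap replicates 1 and 4, 0.10 and 0.14 without wildtype replicates 1 and 4). *Dll4* changed to 0.0075 with weights and 0.0014 without gene trap replicate 2, *Dll1* to -0.044 without gene trap replicate 5, and *Notch2* to -0.013 without gene trap replicate 3 and -0.0092 without wildtype replicate 5. Leaving out tumors moved the log2 difference of *Hes1* between -0.21 and 0.14, of *Dll4* between -0.12 and 0.001, of *Dll1* between -0.04 and 0.12 and of *Notch2* between -0.01 and 0.11. *Resf1* stayed between -0.28 and -0.17, but its unadjusted p was above 0.05 in 8 alternatives: 0.0544 without the variance trend, 0.0542 with weights, and up to 0.0781 in 6 fits with a tumor left out (gene trap replicates 2, 4 and 5, wildtype replicates 1, 2 and 4). Relations with marker scores at an adjusted p under 0.05 were 0 under all 13 alternatives, and those between Notch genes were 0 to 2 with each tumor left out. The cause of these changes was not tested. With 5 tumors a group, and read depth unknown, differences inside the intervals given remain possible. The smallest difference that could be detected in the Notch genes was not estimated.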
